A study of Mus musculus with 20 samples.

Results

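The centriole genes described here are the mouse genes whose cellular component annotation, as the authors deposited it, holds the exact term centriole. Of 115 such genes, 5 were left out by name (Plk1, Plk2 and the kinesin genes Kif2a, Kif3a and Kif24), which leaves 110 of the 18169 genes the authors kept after their own filter on expression. The rule thus works by annotation, and the measured values that members were selected on are those of the expression filter. Of the 110 genes, 109 had enough counts to be tested. The remaining gene, Cep295nl, averaged 0.139 CPM (counts scaled to a fixed library total), with a range of 0 to 0.33.

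The genes were measured in antral follicles, the fluid-filled stage of the ovarian follicle, in which granulosa cells surround an oocyte and theca cells form the outer wall. Female CD-1 mice, an outbred strain for which the labels name no engineered allele, drank plain water or water with 10 or 500 mg/L iodoacetic acid (IAA), a disinfection by-product that alkylates thiols, for 35 days from 40 days of age, and were 75 days old and in diestrus at collection. Follicles of 220 to 400 µm, 30 to 40 from each mouse, were dissected by hand and sequenced as 1 library per mouse. The 500 mg/L mice and 5 water controls made up experiment 1, and the 10 mg/L mice and 5 other controls made up experiment 2, a month apart. This gives 10 control mice (numbers 6 to 10 in experiment 1 and 1 to 5 in experiment 2) and 5 mice at each dose.

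A centriole is a short barrel of microtubules. A pair of centrioles, embedded in the pericentriolar material that nucleates microtubules, forms the centrosome, and the older centriole of the pair can carry appendages, dock at the cell surface and grow a primary cilium. New centrioles form once per cell cycle beside the old ones: the kinase PLK4 acts with STIL on SASS6, which builds the cartwheel, and further proteins then lengthen the wall and stop its growth. Granulosa cells of a growing follicle divide and carry primary cilia, whereas the oocyte of many mammals, mouse included, loses its centrioles and builds its meiotic spindle without them.

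Library totals ranged from 39856769 to 67490163 estimated counts, and the centriole genes together took 0.437% to 0.507% of each library. Summed over 7 genes each, granulosa cell markers reached 6110 to 12800 CPM and oocyte markers 287 to 639 CPM, and 5 theca cell markers reached 1100 to 6970 CPM, so markers of each follicle compartment were present in every mouse. Markers of multiciliated cells, which hold many more centrioles than other cells, summed to 19.0 to 28.8 CPM over 6 genes. Most of this sum was Tppp3, at 9.72 to 24.1 CPM, and the others averaged from 0.288 CPM (Dnah5) to 2.69 CPM (Cfap126). Foxj1, the master regulator of motile cilia, lay between 0.121 and 1.40 CPM. The deuterosome and multiciliation genes Mcidas, Gmnc, Ccdc78 and Cdc20b, and the centrin gene Cetn1, were removed by the authors' filter, with at most 5.83 estimated counts in any library. In whole follicles, fewer cells of a type cannot be told apart from less RNA per cell.

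The centriole genes spanned a wide range of levels. On CPM per kb of the longest coding transcript, averaged over 20 mice, the 10 highest were Ran (140.6), the centrin Cetn3 (67.4), Top2a (64.3), the dynactin subunit Actr1a (48.9), Bnip2 (45.9), Bccip (41.2), Ift20 (37.9), the gamma-tubulin gene Tubg1 (36.5), the dynactin subunit Dctn1 (34.5) and the deacetylase gene Sirt2 (29.5). Several of these act mainly elsewhere in the cell: RAN drives transport through nuclear pores and TOP2A untangles DNA. At the other end were Agbl2 (0.259), Deup1 (0.148), the gene of a deuterosome protein of multiciliated cells, Pla2g3 (0.124), Ccdc151 (0.1104) and Ccdc146 (0.0940). The duplication factors lay close together on this scale, from 2.62 for Cep152 to 12.7 for Plk4. In CPM, 101 genes averaged at least 2 CPM, 8 lay under that level and 8 lay above 100 CPM, with a median of 32.3 CPM.

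Most centriole genes varied little between unexposed mice. Over the 10 controls, the coefficient of variation of the 101 genes with at least 2 CPM had a median of 10.1%. The steadiest were Dctn1 (3.74%), Dzip1 (4.52%), Fbf1 (4.61%), Tubg1 (4.81%) and Tubgcp3 (5.01%), which code for a dynactin subunit, a basal body protein, a distal appendage protein and both a gamma-tubulin and a subunit of its ring complex. Dctn1 lay between 141 and 157 CPM in the controls. The most variable were Ccdc68 (49.1%), Hspa1b (42.0%), Hspa1a (38.7%), Ccsap (31.9%) and Hap1 (28.6%). HSPA1A and HSPA1B are stress-induced chaperones whose near-identical transcripts share reads, so each of their values is uncertain.

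The kinase gene Plk4, the trigger of centriole duplication, showed no difference by dose beyond the spread between mice. Its control levels ran from 34.0 CPM in mouse 7 to 55.4 CPM in mouse 4, with a median of 46.7 CPM. The 500 mg/L mice had 43.9, 48.3, 48.4, 43.2 and 42.9 CPM, all within the control range. The 10 mg/L mice had 45.5, 40.5, 35.8, 42.8 and 39.8 CPM, also within it. The log2 difference from all controls was -0.16 at 10 mg/L (SE 0.09, adjusted p = 0.821) and -0.01 at 500 mg/L (SE 0.09, adjusted p = 0.993) by edgeR's quasi-likelihood test, with p-values adjusted by Benjamini-Hochberg over 17810 genes, as for all adjusted p-values of single genes below.

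Plk4 varied from mouse to mouse with the level of mitotic genes. A mitotic marker score, the mean log2 CPM of Plk1, Aurka, Cdk1, Ccnb1, Cdc20, Mki67, Top2a and Ccna2, ran from 6.48 in control mouse 7 to 7.06 in mouse 3 at 500 mg/L. Across the 20 mice, Plk4 correlated with the score at r = 0.73 (permutation p = 0.00022, adjusted over 8 relations p = 0.00176) and rho = 0.72 (permutation p = 0.00061, adjusted p = 0.00488). Within experiment 1 r was 0.85 (permutation p = 0.00146), and within experiment 2 it was 0.61 (permutation p = 0.0609). Without the 2 mice farthest from the median score, control mouse 7 and mouse 3 at 500 mg/L, r was 0.65. All these values come from the same libraries, so they share depth and scaling.

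The relation to the score also passed for Sass6 and Cep192. Sass6, whose protein builds the cartwheel, had r = 0.64 (permutation p = 0.00206, adjusted p = 0.00824) and rho = 0.66 (permutation p = 0.00218, adjusted p = 0.00592), with r = 0.74 and 0.62 within experiments 1 and 2 and 0.59 without the same 2 mice. Cep192, which recruits PLK4, had r = 0.54 (permutation p = 0.0142, adjusted p = 0.0378) and rho = 0.66 (permutation p = 0.00222, adjusted p = 0.00592). Its r was 0.65 and 0.53 within the experiments and 0.55 without the 2 mice. With Top2a, itself a centriole gene by annotation, left out of the score, r for Cep192 was 0.51 and its adjusted p 0.0634 by the same permutation test. Plk1, which also holds the term but was left out by name, stayed in that score.

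The other 5 relations did not pass. They were Cep152 (r = 0.49, permutation p = 0.0273, adjusted p = 0.0545; rho = 0.47, adjusted p = 0.0772), Stil (r = 0.47, permutation p = 0.0371, adjusted p = 0.0594; rho = 0.35, adjusted p = 0.147), Cenpj (r = 0.41, permutation p = 0.0737, adjusted p = 0.0982; rho = 0.40, adjusted p = 0.114), Cetn2 (r = 0.37, permutation p = 0.109, adjusted p = 0.125; rho = 0.41, adjusted p = 0.114) and Cetn3 (r = 0.34, permutation p = 0.149, adjusted p = 0.149; rho = 0.28, adjusted p = 0.226). Without the 2 mice, r was 0.27 for Stil and 0.02 for Cetn3, so these values rest on those mice. For Cep152 the r within experiment 1 was 0.71 and within experiment 2 it was 0.30. The scatter of Plk4, Sass6, Cep192 and Cetn3 against the score shows these values by mouse.

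**Figure D1:**
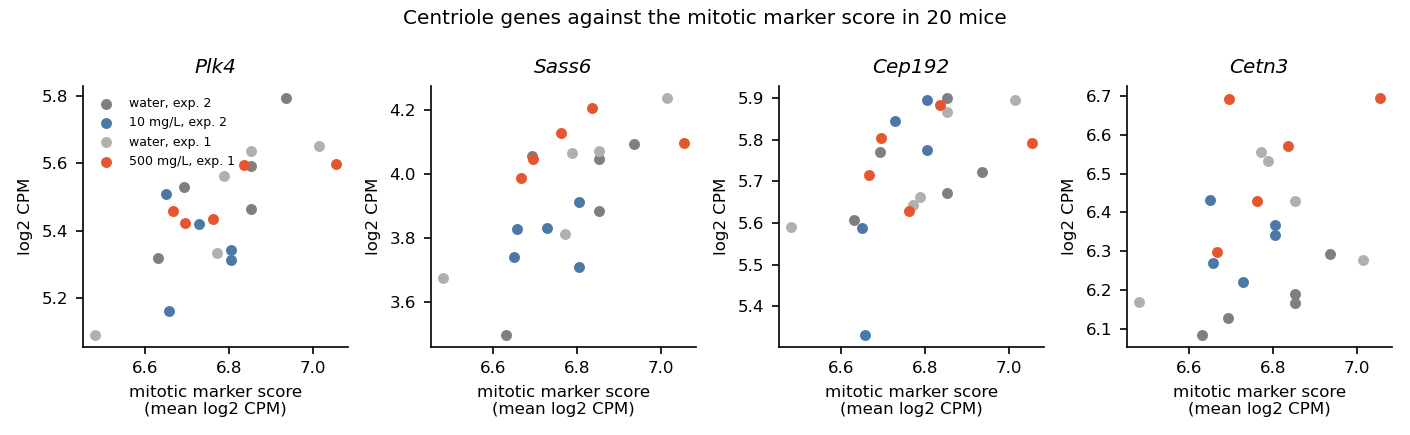
Log2 CPM of 4 centriole genes (vertical) against the mitotic marker score, a mean of log2 CPM (horizontal), 1 point per mouse, coloured by group and experiment. Plk4 climbs with the score in both experiments (r = 0.73 over 20 mice), whereas Cetn3 scatters (r = 0.34).

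As a description over all tested centriole genes, each left out of the score where it belonged to it, r had a median of 0.31 (quartiles 0.06 and 0.44), against 0.01 (-0.2 and 0.21) over all 17810 genes. It was positive for 90 of 109 genes, and at least 0.5 for 18 of them (16.5%), against 3.38% of all genes. The highest were Birc5 (0.84), which codes for survivin of the chromosomal passenger complex, Top2a (0.83), Hyls1 (0.82), a gene of a core centriole protein needed for cilia, Plk4 (0.73), Ccp110 (0.69), whose protein caps the growing centriole, and Tubgcp3 (0.68). The lowest were Capg (-0.37), Hspa1a (-0.34) and Sirt2 (-0.31). Within experiment 2 alone, r was 0.34 for both Ccp110 and Tubgcp3.

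Many mitotic genes carry a cell cycle homology region (CHR) element near their start, bound by the DREAM and B-MYB complexes, often beside CCAAT boxes bound by NF-Y. The 250 bases upstream of the annotated start are shown for the 3 genes with the highest r and the 2 duplication factors with the highest r, from RefSeq on build GRCm38.p6, written 5′ to 3′ on the strand of the gene. Capitals mark CHR letters (TTTGAA or TTCGAA) and CCAAT letters on either strand.
Plk4, chr3:40799701-40799950, plus strand: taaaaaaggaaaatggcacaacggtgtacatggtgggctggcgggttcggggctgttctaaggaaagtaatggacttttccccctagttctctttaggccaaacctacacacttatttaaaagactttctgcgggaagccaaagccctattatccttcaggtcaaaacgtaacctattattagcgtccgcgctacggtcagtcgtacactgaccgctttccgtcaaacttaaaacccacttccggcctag
Sass6, chr3:116594708-116594957, plus strand: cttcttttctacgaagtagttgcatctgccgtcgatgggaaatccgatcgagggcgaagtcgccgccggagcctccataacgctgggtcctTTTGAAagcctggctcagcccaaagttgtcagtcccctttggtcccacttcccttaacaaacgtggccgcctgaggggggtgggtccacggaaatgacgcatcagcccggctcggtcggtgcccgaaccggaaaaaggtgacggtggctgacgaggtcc
Hyls1, chr9:35570070-35570319, minus strand: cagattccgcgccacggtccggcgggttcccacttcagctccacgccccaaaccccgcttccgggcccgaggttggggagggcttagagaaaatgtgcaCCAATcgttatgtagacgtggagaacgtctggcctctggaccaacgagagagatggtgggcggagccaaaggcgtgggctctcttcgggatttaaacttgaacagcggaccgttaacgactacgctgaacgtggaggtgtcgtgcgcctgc
Birc5, chr11:117848987-117849236, plus strand: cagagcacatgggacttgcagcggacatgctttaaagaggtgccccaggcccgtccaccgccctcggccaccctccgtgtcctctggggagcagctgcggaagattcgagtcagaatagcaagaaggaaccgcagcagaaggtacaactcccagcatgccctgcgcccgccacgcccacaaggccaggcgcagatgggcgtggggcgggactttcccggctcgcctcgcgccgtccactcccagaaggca
Top2a, chr11:99024190-99024439, minus strand: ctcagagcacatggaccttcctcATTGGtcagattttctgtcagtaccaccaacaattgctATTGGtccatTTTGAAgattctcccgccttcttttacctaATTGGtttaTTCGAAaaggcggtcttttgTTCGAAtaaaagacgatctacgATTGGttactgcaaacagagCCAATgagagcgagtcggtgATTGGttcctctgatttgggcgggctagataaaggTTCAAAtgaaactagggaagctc
Top2a held 4 matches to the CHR letters and 6 to the CCAAT letters. Sass6 held 1 CHR match, Hyls1 held 1 CCAAT match, and neither set of letters was in these windows of Plk4 and Birc5.

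An upstream window was matched by Entrez gene identifier for 92 of the 109 tested centriole genes. CHR letters were in 15 of them (16.3%), against 12.8% of 13921 genes with a window, and CCAAT letters in 38 (41.3%), against 35.7%. Letters of an E2F site (TTTCCCGC, TTTCGCGC, TTTGCCGC or TTTGGCGC, either strand), the motif of the S phase factors, were in 6 (6.52%), namely Alms1, Cep128, Cep63, Cntln, Mphosph9 and Tubgcp3, against 3.07%. The X-box of the ciliary RFX factors was looked for on both strands and was in Ccdc151 and Mks1, 2 windows (2.17%), against 0.733%. Of the CHR, CCAAT and E2F letters, none holds those of another. The X-box has positions where any base was allowed, so a match to it can hold CCAAT letters. The counts describe letters only.

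At 500 mg/L no centriole gene passed the test against all 10 controls, but the differences lay mostly above 0. Of 109 genes, 79 (72.5%) were higher on the log2 scale, against 49.9% of all genes, with a median of 0.075 against -0.00014. The smallest adjusted p was 0.267. An adjusted p under 0.05 was reached by 0.0112% of all genes, 2 in number. At an unadjusted p under 0.05, 20 centriole genes (18.3%) were higher, against 4.51% of all genes, and 2 (1.83%) were lower, against 4.18%. Without mouse 5 at 500 mg/L the count of higher genes was 12, and over the other mice left out in turn it stayed between 14 and 24.

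Against the 5 controls of experiment 1 alone, the shift was smaller. Here 75 of 109 genes (68.8%) were positive, with a median of 0.049, against 50.5% and 0.0018 over all genes. At an unadjusted p under 0.05, 10 (9.17%) were higher, against 2.73% of all genes, and 1 (0.917%) was lower, against 2.46%. No gene of any kind passed an adjusted p of 0.05 (0% of all genes), and the smallest adjusted p of a centriole gene was 0.954. Leaving out control mouse 6, control mouse 7, or mouse 4 or 5 at 500 mg/L gave 6, 4, 5 and 5 higher genes.

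**Figure D2:**
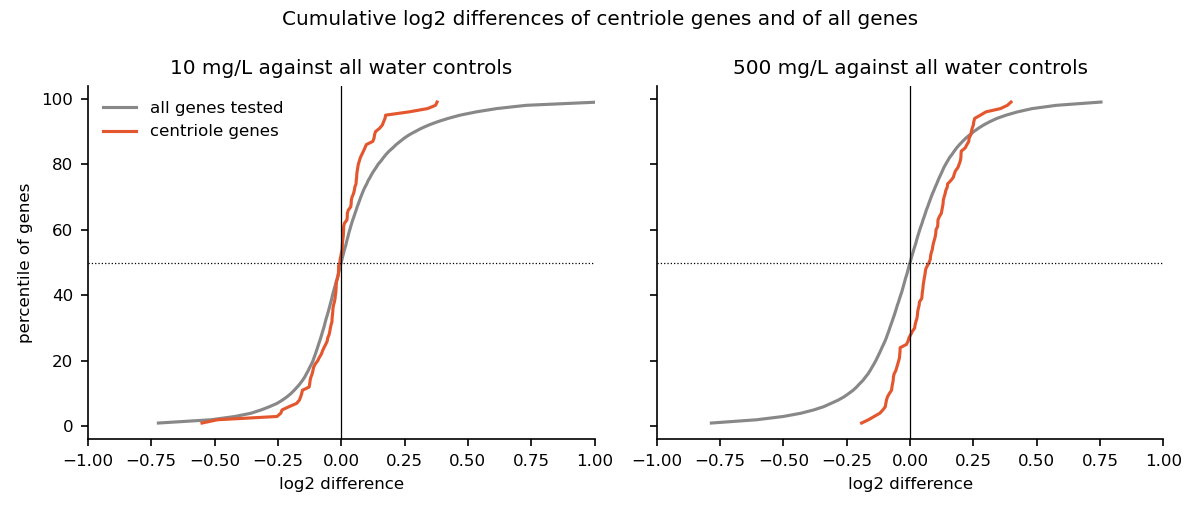
Cumulative percentile of genes (vertical) by log2 difference from all water controls (horizontal) at 10 mg/L (left) and 500 mg/L (right), for all 17810 genes tested (grey) and 109 centriole genes (red). At 500 mg/L the centriole curve crosses the dotted 50th percentile at 0.075, while at 10 mg/L it crosses near 0.

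GC content of the transcripts moved with these differences. Over 15226 genes, the 500 mg/L difference had a Spearman rho of -0.32 with transcript GC, and over the 109 centriole genes, rho was -0.44, given as a description across genes, which are not independent. Centriole transcripts were less GC-rich at the median, 48.0% against 50.2%. Within the quartile of genes with the least GC, the median difference was 0.067 over all genes and 0.13 over 37 centriole genes, of which 32 were positive. Within the quartile with the most GC it was -0.066 and 0.036, and 14 of 23 centriole genes were positive. Against the experiment 1 controls, the centriole median in this quartile turned to -0.0027, with 10 of 23 positive, beside -0.056 over all genes. After removing the trend with GC, 79 centriole genes were positive, with a median of 0.067, and 15 of the higher genes had an unadjusted p under 0.05, against 3.45% of all genes. Against the experiment 1 controls, the corresponding values were 72 genes, 0.040 and 7 genes, against 1.97% of all genes.

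**Figure D3:**
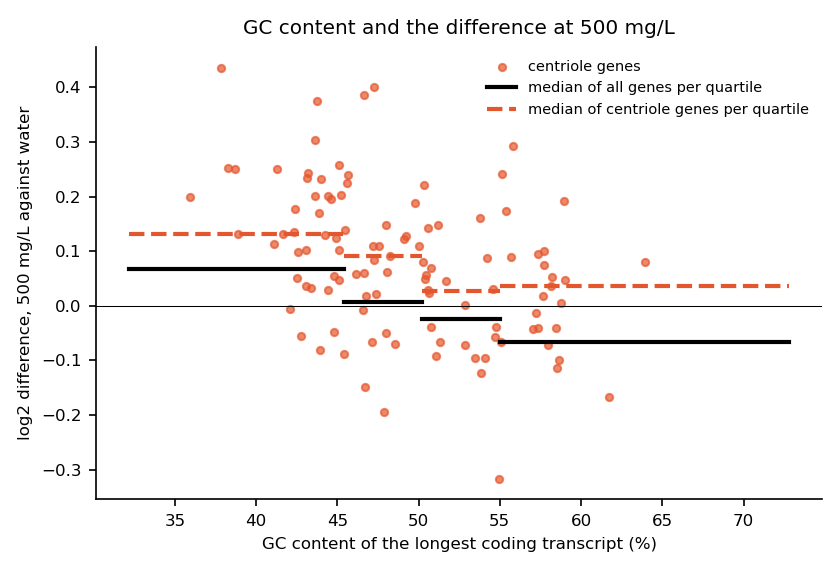
Log2 difference between 500 mg/L and all water controls (vertical) against GC content of the longest coding transcript in percent (horizontal), 1 point per centriole gene. Black lines are medians of all genes and dashed red lines medians of centriole genes in each GC quartile, where the latter lie above the former by 0.132 against 0.0668 in the first quartile and 0.036 against -0.0658 in the last.

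Lists of cell type markers were read beside these values, and no marker passed an adjusted p of 0.05 at 500 mg/L. All 5 red cell markers were higher (median log2 difference 0.74), with sums of 31.0 to 133 CPM against 17.0 to 75.7 CPM in the controls, and 1 of them had an unadjusted p under 0.05. All 7 surface epithelium markers were higher (median 0.095), with none at that threshold. Of 7 granulosa cell markers 5 were higher (median 0.21), of 7 oocyte markers 6 (median 0.021), of 6 endothelial markers 4 (median 0.060) and of 5 luteal markers 3 (median 0.054). Of 5 theca cell markers 2 were higher (median -0.16), of 6 multiciliated cell markers 3 (median -0.15) and of 6 leukocyte markers 2 (median -0.071). The summed levels of the red cell, epithelium, granulosa cell and oocyte lists overlapped between the groups. Against the experiment 1 controls, all 5 red cell markers were higher (median 1.11), as were all 7 oocyte markers (median 0.19), 4 of 7 granulosa cell markers (median 0.23), and 3 of 5 theca cell markers (median 0.32). Of the others, 5 of 7 epithelium (median 0.071), 4 of 6 endothelial (median 0.034), 2 of 6 multiciliated (median -0.26), 1 of 6 leukocyte (median -0.14) and 0 of 5 luteal markers (median -0.33) were higher. Of the 7 mitotic markers outside the 110 genes, 3 were higher against all controls, with a median of -0.017. Only Mki67, at 0.21, had an unadjusted p under 0.05 there. Against the experiment 1 controls 2 of the 7 were higher, with a median of -0.010 and none at that threshold. The part of these lists in the centriole values was not tested.

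The gene with the smallest p at 500 mg/L against all controls was Cntln, which codes for centlein, a linker between the centrioles of a pair. Its levels were 42.5, 54.7, 49.99, 50.2 and 50.4 CPM at 500 mg/L, against 32.0 to 47.4 CPM (median 38.0) in the controls. In all, 4 of the 5 exposed mice lay above every control. The log2 difference was 0.37 (SE 0.10, adjusted p = 0.267), and against the experiment 1 controls it was 0.30 (SE 0.11, adjusted p = 0.954). DESeq2 gave 0.37 with an adjusted p of 0.0471, the only centriole gene it called at either dose. Mouse 2 at 10 mg/L, with 56.9 CPM, also lay above every control.

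**Figure D4:**
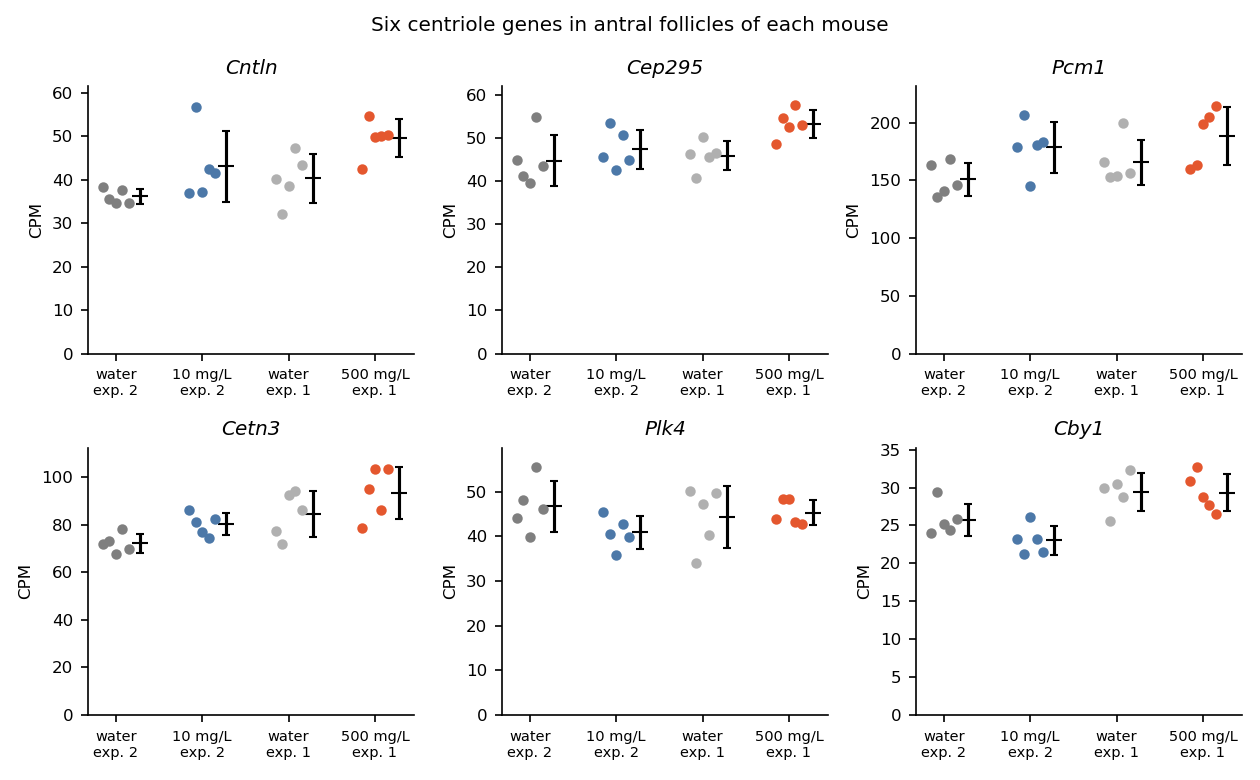
CPM of 6 centriole genes (vertical), 1 point per mouse, in the 4 sets of mice (horizontal), with the mean and SD of each set beside the points. Cntln and Cep295 sit highest in the 500 mg/L mice, with means of 49.6 and 53.2 CPM, and Cby1 sits lowest in the 10 mg/L mice, with a mean of 23.1 CPM.

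Among genes of the centriole wall and its length, 10 of 14 were positive at 500 mg/L with a median of 0.060 (11 and 0.035 against the experiment 1 controls), and Cntrob, Cep295, Cep120 and Cep44 had an unadjusted p under 0.05. Cep295, needed to lengthen a new centriole and turn it into a centrosome, had 48.6, 54.5, 52.4, 57.6 and 53.0 CPM, against 39.6 to 54.8 CPM (median 45.2) in the controls. Only mouse 4 exceeded the highest control, a mouse of experiment 2. The log2 difference was 0.23 (SE 0.07, adjusted p = 0.342). Cntrob, whose protein centrobin sits on daughter centrioles, had 29.3, 37.3, 39.0, 36.2 and 38.2 CPM against 26.4 to 35.3 CPM. Here 4 exposed mice lay above all controls, and the log2 difference was 0.24 (SE 0.07, adjusted p = 0.336). Ccp110, which caps the wall, differed by 0.05 (SE 0.09), and Cep350 by -0.01 (SE 0.09). Of 6 listed wall genes without the annotation, 5 were positive with a median of 0.061, among them Poc5 at 0.16 (SE 0.06), while Ppp1r35 was at -0.21 (SE 0.09).

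Among the 8 duplication factors, 7 were positive at 500 mg/L with a median of 0.11, and only Cep135, a cartwheel-associated protein gene, had an unadjusted p under 0.05. Its levels were 20.6, 20.8, 23.9, 20.3 and 23.6 CPM, against 16.4 to 21.1 CPM (median 19.0) in the controls, a log2 difference of 0.20 (SE 0.07, adjusted p = 0.434). Sass6 differed by 0.14 (SE 0.09), Stil by 0.13 (SE 0.15) and Cep192 by 0.03 (SE 0.08). Against the experiment 1 controls 7 of the 8 were positive with a median of 0.084, and none, Cep135 included, had an unadjusted p under 0.05.

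The centrins are calcium-binding proteins of the centriole lumen. Cetn3 had 78.6, 95.0, 104, 86.2 and 104 CPM at 500 mg/L, against 67.8 to 94.1 CPM (median 75.3) in the controls. Of the exposed mice, 3 lay above all controls, and the log2 difference was 0.25 (SE 0.08, adjusted p = 0.360). The controls themselves differed between experiments: Cetn3 was higher by 0.23 (SE 0.08, adjusted p = 0.371) in experiment 1, and the difference at 500 mg/L from those controls was 0.14 (SE 0.08). Cetn2 differed by 0.13 (SE 0.07), and Cetn4, at 1.15 to 2.78 CPM, by 0.30 (SE 0.18). From the experiment 1 controls these were 0.08 (SE 0.08) and 0.15 (SE 0.20).

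Distal appendages dock the centriole at the membrane. All 6 of these genes were positive at 500 mg/L with a median of 0.13, and Sclt1 and Cep83 had an unadjusted p under 0.05. Against the experiment 1 controls 5 were positive with a median of 0.097, and none had an unadjusted p under 0.05. All 6 were also higher in the controls of experiment 1 than in those of experiment 2, with a median of 0.072. Cep83 had 34.1, 34.9, 37.0, 39.3 and 39.4 CPM, against 28.1 to 36.2 CPM in the controls, and differed by 0.20 (SE 0.09, adjusted p = 0.529). Sclt1 had 17.3, 22.2, 26.7, 19.6 and 26.7 CPM, against 15.4 to 21.4 CPM, and differed by 0.23 (SE 0.10, adjusted p = 0.490). The groups overlapped for both. Fbf1 and Cep164 differed by 0.02 (SE 0.06) and 0.07 (SE 0.07).

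Subdistal appendages anchor microtubules. Of 7 such genes 5 were positive with a median of 0.10, and against the experiment 1 controls 4 were positive with a median of 0.00056. None had an unadjusted p under 0.05. Odf2, which is needed for both kinds of appendage, differed by 0.15 (SE 0.08) and Nin, ninein, by -0.07 (SE 0.10). The 2 listed genes without the annotation that had an unadjusted p under 0.05 were Cntrl at 0.32 (SE 0.11) and Ninl at 0.18 (SE 0.07). The controls of the experiments differed by 0.30 (SE 0.11) for Cntrl, and from the experiment 1 controls it differed by 0.18 (SE 0.11) and Ninl by 0.20 (SE 0.08).

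Centriolar satellites are granules that carry proteins to the centrosome and cilium, with PCM1 as their scaffold. Of 7 genes of satellites and the ciliary gate, 6 were positive at 500 mg/L with a median of 0.17 (6 and 0.11 against the experiment 1 controls), and Pcm1, Bbs4 and Cep290 had an unadjusted p under 0.05. Pcm1 had 160.1, 164, 199, 205 and 215 CPM, against 136 to 199.8 CPM (median 155) in the controls. Only mice 4 and 5 exceeded the highest control, mouse 9, and the log2 difference was 0.25 (SE 0.09, adjusted p = 0.445). Bbs4, a subunit of the complex that sorts ciliary membrane proteins, had 26.0, 28.6, 31.0, 19.9 and 23.5 CPM, against 14.4 to 26.5 CPM. The groups overlapped, and the log2 difference was 0.39 (SE 0.14, adjusted p = 0.451). From the experiment 1 controls Bbs4 differed by 0.45 and had the smallest p among higher genes of at least 2 CPM. Cep290, a ciliary gate gene, had 27.7, 28.5, 34.8, 35.2 and 36.1 CPM, against 23.2 to 33.2 CPM, a log2 difference of 0.25 (SE 0.10, adjusted p = 0.467).

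Of 6 genes of the pericentriolar material, 5 were positive at 500 mg/L with a median of 0.087, and against the experiment 1 controls 4 were positive with a median of 0.026. Pcnt, the gene of the scaffold pericentrin, had 109.8 to 129 CPM at 500 mg/L and differed by 0.17 (SE 0.09), Nedd1, which brings gamma-tubulin rings to the centrosome, differed by 0.11 (SE 0.06), whereas Tubg1, gamma-tubulin, differed by -0.01 (SE 0.06). Among 8 listed genes without the annotation, 6 were positive, with a median of 0.055, and Akap9 differed by 0.17 (SE 0.08), or by 0.11 (SE 0.08) from the experiment 1 controls. All 4 annotated intraflagellar transport genes were positive with a median of 0.11 (0.059 against the experiment 1 controls), with Ift88 at 0.20 (SE 0.11). Of 10 others 7 were positive with a median of 0.061, among them Ift74 at 0.34 (SE 0.09) and Ift81 at 0.19 (SE 0.09), both at an unadjusted p under 0.05.

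Further genes off these lists had an unadjusted p under 0.05 at 500 mg/L. Cep162, which links the axoneme to the transition zone, had 29.5, 33.9, 30.7, 34.9 and 28.6 CPM, against 24.7 to 30.0 CPM (median 26.8) in the controls. Of the exposed mice, 3 lay above all controls, and the log2 difference was 0.22 (SE 0.06, adjusted p = 0.325). The others that were higher were 2700049A03Rik (0.26), Ccdc57 (0.29), Cfap20 (0.11), Rp2 (0.20), Saxo2 (0.44, from a control mean of 1.08 CPM), Stard9 (0.22) and Topors (0.20). From the experiment 1 controls Cfap20 and Rp2 each differed by 0.06. The lower pair were Ran and Actr1a. Ran had 289, 295, 333, 302 and 327 CPM against 307 to 419 CPM (log2 difference -0.19, SE 0.08, adjusted p = 0.462), and Actr1a 125, 131, 126, 124 and 119.8 CPM against 128 to 151 CPM (-0.12, SE 0.04, adjusted p = 0.422). Both were already lower in the experiment 1 controls than in those of experiment 2, by 0.21 and 0.11 on the log2 scale, and from their own controls they differed by -0.08 (SE 0.07) and -0.07 (SE 0.04). Rasl2-9, a Ran-like copy at 0.114 to 0.579 CPM, may take up reads of Ran. The next lowest p-values among lower genes were those of Cep41 (-0.15, SE 0.08) and Wdr34 (-0.11, SE 0.06). From its own controls Wdr34 differed by -0.16 (SE 0.07, adjusted p = 0.954), the single centriole gene lower there at an unadjusted p under 0.05.

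At 10 mg/L the centriole genes lay around 0. Against all controls 52 of 109 (47.7%) were positive, with a median of -0.0054, against 49.9% and -0.00039 over all genes. None passed, with a smallest adjusted p of 0.633, and 0.00561% of all genes passed. At an unadjusted p under 0.05, 2 (1.83%) were higher, against 3.08% of all genes, and 4 (3.67%) were lower, against 3.14%. Against the experiment 2 controls 60 of 109 (55.0%) were positive with a median of 0.012, against 50.1% and 0.00023 over all genes, and 7 were higher, against 3.78% of all genes, and 3 lower, against 2.66%. Against all controls the higher count was 5 without control mouse 9 or without mouse 1 or 3 at 10 mg/L, and against own controls it was 4 without control mouse 3 or mouse 2 at 10 mg/L and 3 without control mouse 5. No gene passed an adjusted p of 0.05 in this comparison (0% of all genes).

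The 4 lower genes were Cby1, Cep19, Cfap20 and Cep43, whose products act in the making of cilia. Cby1 had 23.2, 21.3, 26.1, 23.2 and 21.5 CPM, against 24.0 to 32.3 CPM (median 27.3) in the controls. Here 4 exposed mice lay below all controls, and the log2 difference was -0.26 (SE 0.08, adjusted p = 0.633). The 5 controls of experiment 2 had 24.0 to 29.4 CPM and those of experiment 1 had 25.6 to 32.3 CPM, and from the former the difference was -0.16 (SE 0.08, adjusted p = 0.781). Cep19 had 13.8, 17.1, 15.5, 11.8 and 15.5 CPM, against 15.9 to 19.8 CPM, with 4 mice below all controls (-0.23, SE 0.08, adjusted p = 0.692). From the experiment 2 controls Cep19 differed by -0.16 (SE 0.09). Cfap20 differed by -0.13 (SE 0.05) from all controls and by -0.07 (SE 0.05) from those of experiment 2. Cep43 differed by -0.17 (SE 0.07) and -0.19 (SE 0.08).

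The 2 higher genes at 10 mg/L were Sirt2 and Deup1. Sirt2 had 62.7, 71.04, 68.1, 62.6 and 67.0 CPM, against 54.8 to 68.8 CPM (median 58.9) in the controls. Each of the 5 lay above all experiment 2 controls, which reached 62.0 CPM. Control mice 7 and 10 of experiment 1 lay among the exposed mice, at 68.8 and 62.85 CPM. The log2 difference was 0.15 (SE 0.06, adjusted p = 0.740) from all controls and 0.19 (SE 0.06, adjusted p = 0.659) from those of experiment 2. Deup1 had 0.453, 0.576, 0.453, 0.931 and 0.654 CPM, against 0.104 to 0.521 CPM, which is near the detection limit (0.80, SE 0.27, adjusted p = 0.692). From their own controls Pcm1 (0.24, SE 0.10), Cntrob (0.20, SE 0.08), Sdccag8 (0.25, SE 0.10), Cntln (0.25, SE 0.11) and Ofd1 (0.24, SE 0.11) were above the unadjusted threshold too. The 3 lower genes in that comparison were Hspa1b (-0.96, SE 0.39), Hspa1a (-0.87, SE 0.40) and Cep43. Pcm1 had 179, 207, 145, 180.4 and 184 CPM, against 136 to 169 CPM in those controls. All 6 endothelial markers were higher at 10 mg/L as well (median 0.34, 4 at an unadjusted p under 0.05). Their sums were 249 to 365 CPM, against 208 to 333 CPM in the controls. All 5 red cell markers (median 0.64) and all 5 luteal markers (median 0.87, 1 at that threshold) were higher too. From the experiment 2 controls these medians were 0.33, 0.40 and 1.67. Of the other lists, 3 of 7 granulosa, 3 of 5 theca, 4 of 7 oocyte, 4 of 6 multiciliated, 3 of 7 epithelium and 3 of 6 leukocyte markers were higher against all controls. The part of these lists in the centriole values was not tested.

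The difference from own controls was also compared between the doses. No gene passed an adjusted p of 0.05 (0% of all genes), and the smallest adjusted p of a centriole gene was 0.865. At an unadjusted p under 0.05, 4 centriole genes (3.67%) had the more positive difference at 500 mg/L, against 2.03% of all genes, and 0 the more negative, against 3.38%. The 4 were Hspa1b (1.49, SE 0.56), Hspa1a (1.47, SE 0.56), Cep120 (0.18, SE 0.08) and Bnip2 (0.18, SE 0.08). Without control mouse 1, 5, 7 or 9, or without mouse 1 or 5 at 500 mg/L, the count was 2. Hspa1b had 98.2, 95.8, 23.1, 39.0 and 135 CPM at 500 mg/L against 42.0 to 83.2 CPM in its controls, and 81.8, 53.9, 59.0, 31.1 and 27.0 CPM at 10 mg/L against 62.5 to 140.5 CPM. The exposed mice of both doses overlapped with their controls. The lowest p-values in the other direction, none under 0.05, were those of Wdr34 (-0.18, SE 0.10), Sirt2 (-0.14, SE 0.09), Cchcr1 (-0.17, SE 0.14) and Actr1a (-0.08, SE 0.06).

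For some centriole genes the controls of the experiments also stood apart. In experiment 1 against experiment 2, 68 of 109 centriole genes (62.4%) were positive, with a median of 0.034, against 50.3% and 0.00094 over all genes. At an unadjusted p under 0.05, 8 (7.34%) were higher, against 5.24% of all genes, and 3 (2.75%) were lower, against 4.54%. The higher count was 4 or 5 without control mouse 1, 2, 8, 9 or 10. None passed an adjusted p of 0.05, against 0.157% of all genes. Rp2, a gene of a protein that traffics lipid-modified cargo to the cilium, came nearest: 38.2, 40.0, 40.9, 43.9 and 39.6 CPM in experiment 1 against 35.5, 36.0, 28.3, 32.6 and 31.7 CPM in experiment 2. The 2 sets of controls did not overlap (0.30, SE 0.07, adjusted p = 0.112). In DESeq2 Rp2 had an adjusted p of 0.00894. Its difference from own controls was 0.06 (SE 0.07) at 500 mg/L and 0.00 (SE 0.07) at 10 mg/L. Ccdc68, of the subdistal appendages, differed by 0.86 (SE 0.30, adjusted p = 0.341), with control mouse 10 at 21.8 CPM. The lower genes at an unadjusted p under 0.05 were Ran, Actr1a and Hspa1b (-0.86, SE 0.39), followed by Htt (-0.18, SE 0.09). Marker lists differed between the sets of controls too. In experiment 1 all 7 oocyte markers were lower (median -0.30, none at an unadjusted p under 0.05), as were all 5 red cell markers (median -0.38). All 5 luteal markers were higher (median 1.40, 2 at that threshold), as were 5 of 6 leukocyte markers (median 0.40). Of 5 theca cell markers 2 were higher and 3 lower, with 1 and 2 at that threshold. The part of these lists in the centriole differences was not tested.

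The authors' deposited table of their own comparisons, which pools the controls and uses another fit, called more of these genes. At a false discovery rate (FDR) under 0.05, it called 5 centriole genes at 500 mg/L among 229 genes (1.26% of 18169), and 1 at 10 mg/L among 111 genes (0.611%). In the authors' deposited table the 5 were Bbs4 (fold 1.29, FDR 0.0209), Cntln (1.30, FDR 0.0342), Cep295 (1.18, FDR 0.0360), Cep162 (1.17, FDR 0.0491) and Cntrob (1.17, FDR 0.0491). The gene in the authors' deposited table at 10 mg/L was Cby1 (fold -1.19, FDR 0.0401). At a raw p under 0.05, the authors' deposited table had 31 centriole genes higher at 500 mg/L, against 8.07% of all genes, and 4 lower, against 8.81%. At 10 mg/L the same table had 6 higher, against 6.52%, and 10 lower, against 7.88%. Both comparisons share the same 10 controls.

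Mouse by mouse, the log2 deviation of each centriole gene from its mean over the 10 controls was taken, and the median over genes read. This median lay above 0 in each mouse at 500 mg/L, at 0.037, 0.153, 0.130, 0.042 and 0.0605. The controls ran from -0.120 in mouse 7 to 0.0838 in mouse 10, so every exposed value but that of mice 2 and 3 lay within their range. By experiment, control mice 6 to 10 of experiment 1 had 0.0729, -0.120, 0.0446, 0.0145 and 0.0838, so most of them lay above 0 as well. Those of experiment 2 ran from -0.0669 to 0.0422. The 10 mg/L mice ran from -0.044 to 0.105 in mouse 2. Control mouse 7, the lowest, was also the mouse with the lowest mitotic score.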

How the data were processed

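Stranded mRNA libraries from 20 mice were sequenced for 101 cycles in 1 lane, per the labels' protocols. Estimated counts per gene were made by the authors before deposit, and the submitters' processing notes name Salmon 1.2.0, build GRCm39, edgeR, limma, FastQC 0.11.8 and R 4.1.2 with no order. The authors' deposited table of 18169 genes gives their average log2 expression, p-values and FDR, and as a score the F statistic and signed linear fold changes. Its annotation column gave the centriole genes. The experiment of each mouse came from the headers of the count table.

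Estimated counts were rounded, genes with low counts were filtered by group, libraries were scaled by TMM, and 17810 genes were fitted with edgeR 4.0.16 (quasi-likelihood, robust, R 4.3.3) in a model of 3 group means and a model of 4 means by group and experiment, each with all 20 mice. P-values were adjusted by Benjamini-Hochberg over all genes tested. CPM use TMM-scaled totals, except for Cep295nl, which was not tested. Log2 CPM for the correlations have a prior count of 2, and permutation tests were two-sided with 100000 resamples. The code was tested on simulated counts. Alternatives were DESeq2 1.42.0, limma-voom (limma 3.58.1), DESeq2 size factors, no filter, another prior count, own controls only and each mouse left out. A replicate block was also fitted, with control mice 1 to 5 only. A lowess correction for GC content and a score without Top2a were chosen after seeing the data.

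Genes named in the text were, per comparison, up to 4 in each direction with the smallest p among those of at least 2 CPM, the extremes in level and in variation, and the genes of role lists. Other genes were named after their values were seen. The members and lists were chosen with earlier results of these data known. Transcript lengths and GC content came from GENCODE M21 and upstream windows from RefSeq (GRCm38.p6), an older build than that of the counts. They were matched to genes by Entrez identifier, and lengths and GC content by symbol where that gave no match. Libraries of a group differed by far more than counting noise. The typical coefficient of variation between mice was 24.98%.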

Additional observations from a re-analysis of the deposited data

Results flagged for a closer look

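For 76 named centriole genes, the highest and lowest mouse of each group were checked for a gap to the others beyond Dixon's 95% limit. In 11 of 228 groups a mouse stood apart, and chance gives about 1 in 20. All 11 were high. At 10 mg/L, mouse 2 had 42.74 CPM of Cetn2, against 33.3 to 35.8 CPM in the other 4 mice, and 56.90 CPM of Cntln, against 37.0 to 42.6 CPM. Mouse 3 of that dose had 50.58 CPM of Ccsap, a spindle and centriole protein gene, against 12.6 to 18.1 CPM. Control mouse 10 had 139.8 CPM of Alms1, against 89.5 to 108.8 CPM in the other controls, 21.79 CPM of Ccdc68, against 5.67 to 13.9 CPM, and 41.25 CPM of Ift88, against 26.7 to 32.8 CPM. Control mouse 9 had 199.8 CPM of Pcm1, against 136 to 169 CPM, and 0.5792 CPM of Rasl2-9, against 0.169 to 0.347 CPM. Single genes stood high in control mouse 6 (Pcnt, 130.4 CPM, against 94.4 to 109.9 CPM), control mouse 4 (Topors, 89.12 CPM, against 62.9 to 75.8 CPM) and control mouse 5 (Agbl2, 1.833 CPM, against 0.672 to 1.26 CPM).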

How the results depend on the processing

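The 48 differences of single genes named by the rule for each comparison had the smallest p in these same data, so a steady sign was likely. For them 1232 alternative values were computed, many of them with 1 mouse left out, and 0 changed sign. Of these, 2 passed an adjusted p of 0.05 where edgeR's test did not, both in DESeq2, whose counts of called centriole genes were 1 at 500 mg/L against all controls (Cntln) and 1 between the sets of controls (Rp2). By limma-voom 0 genes were called in each comparison, and at an unadjusted p under 0.05 it gave 21 higher and 2 lower at 500 mg/L. Counts below are at an unadjusted p under 0.05. With no filter on low counts, 0 genes were lower at 500 mg/L against own controls and 1 between controls. With the correction for GC content, 4 genes were higher at 10 mg/L, 0 lower at 500 mg/L against own controls, and 2 had the more positive difference at 500 mg/L. With only the controls of the same experiment, 7 were higher at 10 mg/L, and 10 were higher and 1 lower at 500 mg/L. With the mitotic score lacking Top2a, r of Cep192 was 0.51 (permutation test, adjusted p = 0.0634). The cause of these shifts was not tested.

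With each mouse left out in turn, genes with an adjusted p under 0.05 stayed at 0 in every comparison. Higher and lower counts ranged from 2 to 5 and 3 to 6 at 10 mg/L, 12 to 24 and 2 to 3 at 500 mg/L, 3 to 9 and 0 to 4 at 10 mg/L against own controls, 4 to 14 and 0 to 1 at 500 mg/L against own controls, 4 to 12 and 2 to 4 between controls, and 2 to 6 and 0 to 3 for the difference between doses.

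Same-numbered mice of different groups were not paired: correlations of their deviations ran from -0.169 to 0.228. With the replicate number as a block, only control mice 1 to 5, those of experiment 2, were used. In that fit 6 genes were higher and 1 lower at 10 mg/L, beside 7 and 3 against own controls without a block. The number of mice, 5 per dose, limits the precision beside a typical coefficient of variation of 24.98% between mice, and genes under 2 CPM rest on few counts.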

Other observations

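Some listed genes of multiciliation and of multiciliated cells, outside the annotation, had their own level in these follicles. Ccno, which codes for a cyclin-like protein of multiciliated cells, had 20.01 to 39.6 CPM, far above Foxj1 in every mouse. Its lowest level, in mouse 3 at 10 mg/L, came with the lowest level of the oocyte marker Gdf9, 73.9 CPM. Its highest, in control mouse 4, came with 144.7 CPM of Gdf9, which reached at most 154.5 CPM. Which cells of the follicle hold Ccno was not tested. Rsph1, a radial spoke gene of motile cilia, had 1.04 to 5.598 CPM and Tekt1 0.398 to 1.65 CPM. At 10 mg/L Rsph1 differed by -0.74 on the log2 scale from all controls (SE 0.32, adjusted p = 0.760 by edgeR).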
